A study of Mus musculus with 125 samples.

Results

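Chromatin accessibility at 9 genes that STAT5 is known to regulate downstream of the BCR-ABL kinase was followed in murine B-ALL cells (B-cell acute lymphoblastic leukaemia) that grew with or without natural killer (NK) cells. The genes were Cish, Socs2, Socs3, Pim1, Myc, Ccnd2, Ccnd3, Bcl2l1 and Bcl6. The members were all consensus peaks whose centre fell within 3 kb of an annotated transcription start of one of the genes or inside its gene body, which gave 60 of 256400 peaks. Ccnd3 held 26 of them, Bcl2l1 13, Ccnd2 7, Socs2 5, Bcl6 4, Cish 2, and Myc, Pim1 and Socs3 1 each.

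The assay was ATAC-seq, in which a transposase cuts accessible DNA, so a peak's count rises with the openness of the site. It reads neither RNA nor STAT5 itself. B-ALL cells of the barcoded lines A, B, C and D were taken from B-ALL + NK cultures at a first time (TP1) and a second time (TP2), and from B-ALL alone cultures at TP1. By the labels TP1 was day 4 and TP2 day 10, and in experiment 9.7 days 6 and 16, while the study's text gives another later day for TP2. All lines came from the bone marrow of wild-type mice transformed by retroviral BCR/ABLp185, a constitutive tyrosine kinase, and only GFP+ sorted leukaemia cells were assayed. The NK cells were primary mouse cells activated with IL-2, a cytokine that signals through STAT5 where its receptor is present. Lines A and B share 1 parent and lines C and D share a different one, so A/B against C/D compares 1 parental line with 1 other. IL-2 was present in every culture. B-ALL alone was sampled at TP1 only, so that length of culture and NK exposure cannot be told apart at TP2.

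There were 125 libraries in 42 groups, with total read counts in peaks of 3083547 to 13580746. In all, 2 pairs of libraries were closer to each other than sampling noise allows. Each such pair was counted once, leaving 54 samples among A/B cultures and 69 among C/D cultures. The study describes biological replicates for each condition, but the labels do not tie replicate numbers to cultures. The p-values thus rest on a spread between samples that could be partly technical. The main fits also take a common NK effect across experiments and count libraries, so their p-values do not measure how that effect varied between experiments. The 9 B-ALL identity markers all had tested peaks. Of 16 NK cell marker genes, 13 had a consensus peak near a start and Ifng, Klrk1 and Ncr1 had none. The summed level of NK marker peaks was 77.3 to 112 CPM (counts scaled to a common library size) with NK cells at TP1 and 71.7 to 99.0 CPM alone in A/B, and 67.0 to 99.7 CPM against 74.6 to 93.1 CPM in C/D. The medians were 96.9 against 82.8 CPM in A/B and 85.4 against 83.3 CPM in C/D. At TP2 the sum reached 100.7 CPM in A/B and 125.5 CPM in C/D. The list includes Il2rb, also read below as a STAT5-activating receptor, and Ccl5, which the study names in the response to interferon-gamma. The part of residual NK cells in the results was not tested.

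In normal B-cell precursors, cytokine receptors activate JAK kinases, which phosphorylate STAT5. The phosphorylated dimer enters the nucleus and binds a palindromic element, TTC and GAA around a spacer of 3 bases. BCR-ABL phosphorylates STAT5 without a cytokine. The target genes serve feedback (Cish, Socs2 and Socs3 encode SH2-domain inhibitors of cytokine signalling), growth (Pim1 encodes a serine/threonine kinase, Myc a transcription factor, Ccnd2 and Ccnd3 D-type cyclins of the G1 phase) and survival (Bcl2l1 encodes BCL-XL). Bcl6 encodes a repressor that STAT5 lowers in B-cell precursors.

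The sequences below show such elements at feedback genes, 5′ to 3′ on the gene's strand, with matches to TTCNNNGAA in capitals. They were read from the RefSeq genome GRCm38.p6. Cish carries a pair of matches separated by 2 bases just before a transcription start. The Socs3 fragment shows 1 of the 2 matches in the Socs3 start peak. The Cish fragment overlaps an annotated exon and the Socs3 fragment none.
Cish, chr9:107296649-107296678, plus strand: ccgcccagttTTCCTGGAAagTTCTTGGAA
Socs3, chr11:117969228-117969257, minus strand: ggccgggcagTTCCAGGAAtcggggggcgg

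A single TTCNNNGAA, which reads the same on both strands, lay somewhere in 22 of 34 tested member peaks (64.7%), against 42.2% of all tested peaks. By median the member peaks were shorter, at 1454 bp against 1725 bp, and the members held 0.627 matches per kb against 0.318. Several start peaks were much longer, up to 8127 bp at Bcl6 with 10 matches. Long peaks have more room for a match, which can raise the whole-peak share. In the 300 bp around the peak centre the shares were 6 of 34 (17.6%) and 9.12%. The interferon-type motif, GAAA followed after any 2 bases by GAAA and searched on both strands, was in 8 of 34 whole member peaks (23.5%) and in 23.5% of all tested peaks, and within the 300 bp in 0 of 34 and 4.79%. A match is a string of letters and not a measured binding site. Further matches stand for the other genes, at their starts or in elements described below.
Myc, chr15:61984262-61984291, plus strand: tcctccccctTTCTGGGAAgtccgggtttt
Pim1, chr17:29492497-29492526, plus strand: tttaaggtagTTCTTAGAActgcagggttt
Ccnd2, chr6:127151903-127151932, minus strand: tcccgagccatTTCCTAGAAagctgtatca
Bcl2l1, chr2:152794802-152794831, minus strand: aaaactcgggcTTCCCTGAAccagctgcat
Bcl6, chr16:23988643-23988672, minus strand: cgcagctcaaaTTCCGAGAAttgagctctg
The Bcl2l1 match is the only one in the peak 33882 bp after its start, and the Bcl6 match is 1 of 4 that lie between 195 and 259 bp after the start.

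Of the 60 member peaks, 34 were detected often enough to be tested, 31 of them among A/B samples and 33 among C/D samples, and 30 among both. The other 26 had a broad peak in 1 to 37 of 125 libraries and median levels of 0.388 to 7.21 CPM, and are not described further. Of the tested peaks 14 were centred no more than 3 kb from a start and 20 lay in the gene body only. A promoter peak by that rule existed for 8 genes. Bcl6 had none, and its start is covered by a peak of 8127 bp (chr16:23981024-23989150) centred 3765 bp away, which was chosen here after its values were seen. Some member peaks also lie at starts of other genes. The peak 2829 bp before the first Ccnd3 start is centred 50 bp from a start of Taf8, and counts as Ccnd3 here. The Cish and Pim1 start peaks are centred 29 bp from a start of Gm17040 and 46 bp from one of Gm26885.

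The start peaks of 8 genes had a broad peak in all 125 libraries, and that of Ccnd3 in 119. Per kb of peak, the level averaged over the 42 groups was 48.5 CPM at Bcl2l1 and 43.3 CPM at Socs3, the highest of the 9. Socs2 followed with 32.7 CPM per kb, Ccnd2 with 29.6 and Cish with 27.1. Myc had 23.2 CPM per kb, Ccnd3 21.7, Pim1 20.6 and Bcl6 17.7. The Ccnd3 value is that of its first start. Next to each other in this order, Socs3 and Socs2 lay further apart than either gene's SD over the groups, and so, narrowly, did Pim1 and Bcl6.

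**Figure D1:**
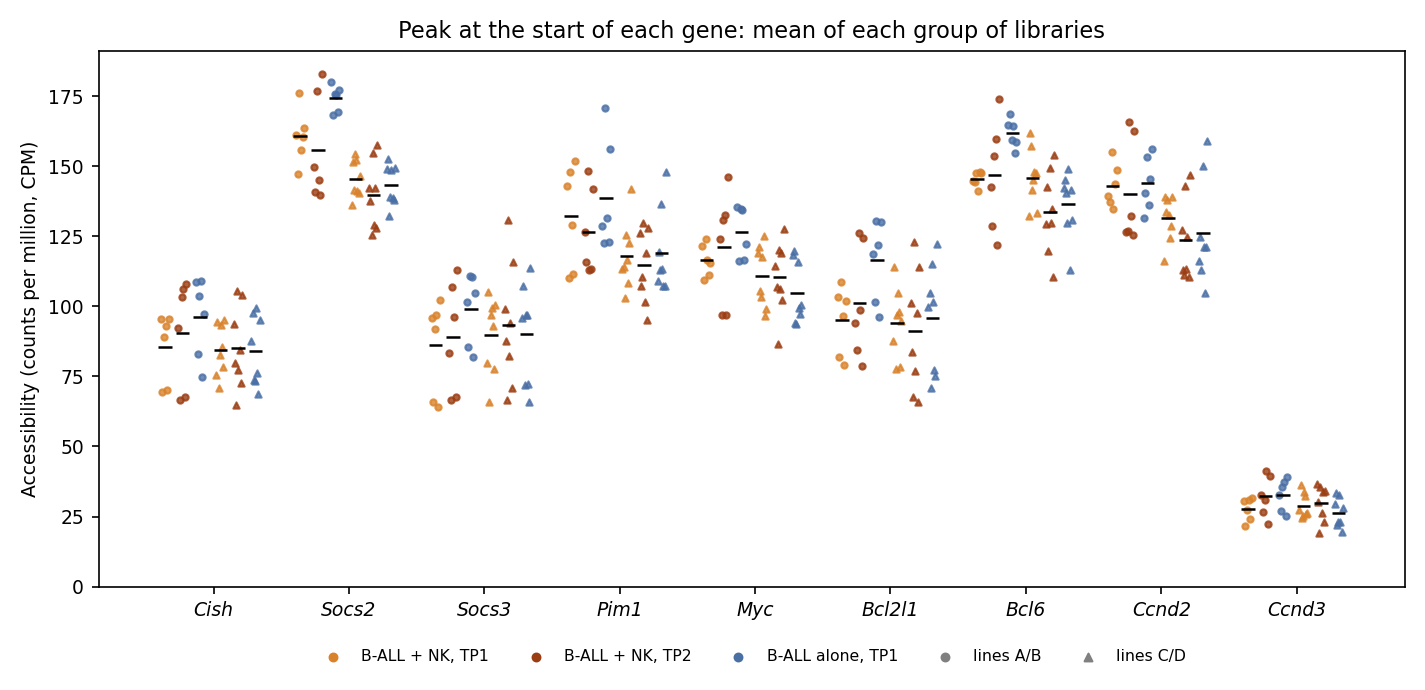
Accessibility (CPM) of the peak at the start of each gene, with a point for each group of libraries and a bar for the mean of the groups of an arm. Circles are lines A/B (6 groups per arm) and triangles lines C/D (8 groups per arm). In A/B at Bcl6 the groups with NK cells at TP1 lie below all groups alone, and elsewhere the arms overlap.

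The first comparison asked what 4 to 6 days with NK cells did to these sites in A/B. Accessibility fell slightly across most of them, and 1 element inside Ccnd3 passed the call of adjusted p ≤ 0.05 and an absolute log2 fold change of at least 0.58. The call held for 1 of 31 member peaks, while 7.9% of 48997 peaks were called in either direction and 1.12% were called lower. At adjusted p alone, 22 of 31 member peaks were lower (71.0%) and 3 were higher, against 24.8% lower and 19.2% higher over all peaks. The median log2 fold change of the members was −0.22, and that of all tested peaks −0.02. Member peaks were also stronger than most, with a median of 33.7 CPM against 8.38 CPM.

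The called Ccnd3 element (chr17:47553040-47553737) lies 40048 bp before the nearest annotated start, inside the gene body of longer transcripts. Its central 300 bases overlap no exon and hold no TTCNNNGAA. They are shown because this was the member peak with the largest change in A/B.
Ccnd3, chr17:47553238-47553537, plus strand: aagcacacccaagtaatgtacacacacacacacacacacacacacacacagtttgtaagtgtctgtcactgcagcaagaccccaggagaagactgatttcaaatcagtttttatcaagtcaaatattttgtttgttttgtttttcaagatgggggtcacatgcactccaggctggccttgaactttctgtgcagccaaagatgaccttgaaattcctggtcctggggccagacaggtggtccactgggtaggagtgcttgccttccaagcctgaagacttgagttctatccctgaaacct
Over 18 libraries its level ran from 8.77 through a median of 18.2 to 24.2 CPM with NK cells at TP1, and over 18 libraries alone from 14.7 through 24.6 to 40.5 CPM. The libraries overlapped, yet the group mean was lower with NK cells in 6 of 6 combinations of line and experiment. The log2 fold change was −0.63 ± 0.08 (SE, edgeR adjusted p = 2.69e-09). It was −0.73 in experiment 9.5 alone, −0.55 in 9.6 and −0.53 in 9.7. Without replicate 1 of each group it was −0.50, which ends the call on size. The count of called member peaks was then 0, and it was 2 without replicate 2 and 3 without replicate 3.

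Ccnd3 as a whole showed the same direction, with 11 of 13 tested peaks lower at adjusted p and 0 higher. The element 36411 bp before the nearest start changed by −0.43 ± 0.07 (edgeR adjusted p = 3.40e-07), or by −0.28 without replicate 1, and the one at 10389 bp by −0.41. The peak at the first start, 106 bp from it, changed by −0.26 ± 0.06 (edgeR adjusted p = 5.79e-04). The peak at the downstream start, 212 bp from it, had −0.09 and did not pass.

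At Bcl2l1, 5 of 7 peaks were lower and 2 were higher. The promoter peak (chr2:152829842-152831865) had 75.8, 96.5 and 118 CPM as lowest, median and highest of 18 libraries with NK cells at TP1, and 83.4, 116 and 142 CPM alone. It was lower in 6 of 6 combinations, with a log2 fold change of −0.30 ± 0.05 (SE, edgeR adjusted p = 5.26e-07). The element 33882 bp into the gene (chr2:152794130-152795177) had 33.2, 59.7 and 80.4 CPM with NK cells and 48.7, 69.1 and 129 CPM alone. Its change, −0.56 ± 0.08 (edgeR adjusted p = 8.70e-08), was short of the size asked for. It was −0.36 without replicate 1, −0.62 without replicate 2 and −0.66 without replicate 3, the last pair past the size. The peaks at 47803 and 18207 bp went the other way, by 0.37 and 0.28, and both are weak, with group means of 19.7 ± 2.39 and 6.19 ± 0.952 CPM with NK cells against 14.9 ± 1.39 and 5.07 ± 0.982 CPM alone (SD, 6 groups).

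The feedback inhibitors fell by small amounts. Cish (chr9:107295552-107298775) had 65.6, 91.1 and 110 CPM as lowest, median and highest with NK cells at TP1, and 58, 101 and 113 CPM alone. Its log2 fold change was −0.18 ± 0.05 (SE, edgeR adjusted p = 0.00258), with 6 of 6 combinations lower. The ranges of the libraries overlapped almost wholly.

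Socs2 (chr10:95414378-95419025) had 133, 162 and 185 CPM with NK cells and 161, 171 and 194 CPM alone, a log2 fold change of −0.13 ± 0.04 (SE, edgeR adjusted p = 0.00335). A second Socs2 peak, 3476 bp after a start, had the larger change of −0.51 ± 0.11 (edgeR adjusted p = 1.33e-04) and was lower in 5 of 6 combinations. Socs3 (chr11:117968224-117970330) had 59.9, 93.7 and 110 CPM with NK cells and 68.5, 101 and 118 CPM alone. Its change was −0.23 ± 0.06 (edgeR adjusted p = 5.47e-04).

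Of the growth genes, Myc (chr15:61983372-61988284) had 98.2, 117 and 138 CPM with NK cells and 107, 126 and 157 CPM alone, a log2 fold change of −0.13 ± 0.05 (SE, edgeR adjusted p = 0.0214). Pim1 (chr17:29488872-29494887) had −0.08 ± 0.05 and the Ccnd2 start peak (chr6:127149178-127153691) −0.02 ± 0.04, and neither passed. A weak Ccnd2 peak, 12433 bp after a start, was higher at adjusted p, by 0.33. Its group means were 6.17 CPM with NK cells and 4.93 CPM alone. Bcl6 had 133, 144 and 159 CPM with NK cells and 131, 163 and 191 CPM alone, a change of −0.17 ± 0.05 (SE, edgeR adjusted p = 0.00223), and the means of its groups did not overlap. These small shifts depend on the scaling: with an offset fitted by loess to the level of each peak, Myc became 0.08, the Socs2 start peak 0.11 and Bcl6 0.07. The Ccnd3 element kept its direction at −0.57 with that offset, but was then short of the size asked for. Without replicate 1 of each group 4 of these peaks did not pass by edgeR, with Myc at −0.05 (adjusted p = 0.542), the Socs2 start at −0.08 (0.204), the Socs2 peak at 3476 bp at −0.36 (0.0549) and Bcl6 at −0.11 (0.146).

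**Figure D2:**
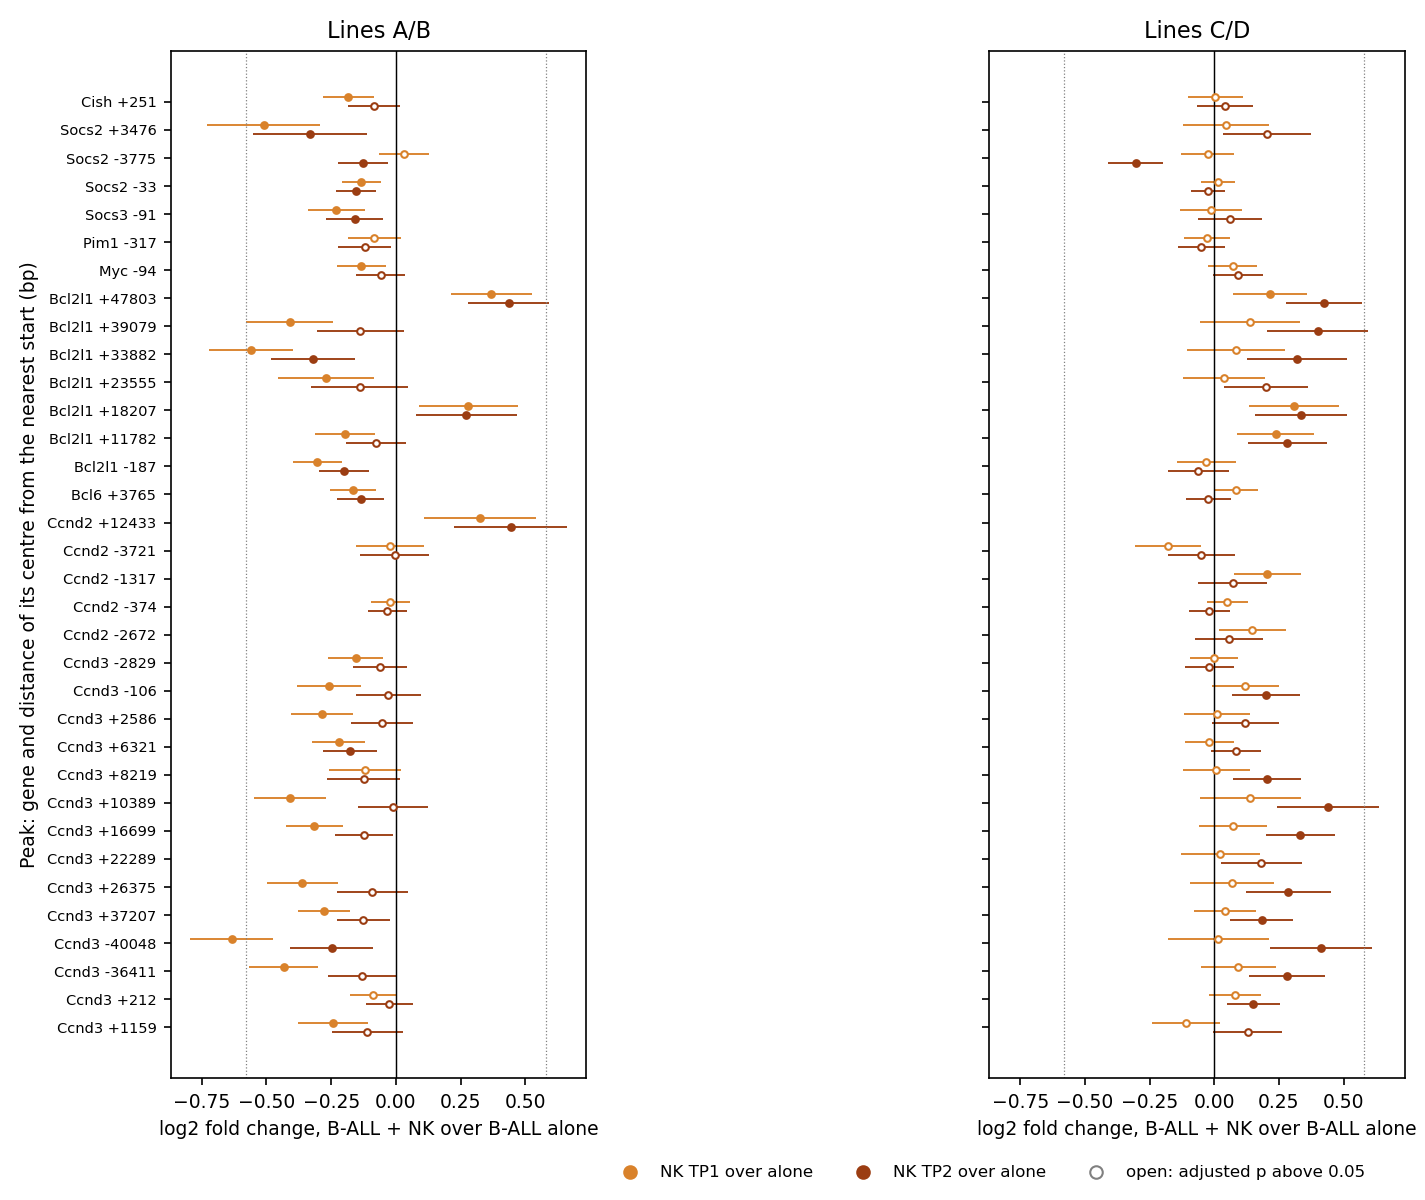
Log2 fold change of each tested member peak, B-ALL + NK over B-ALL alone, with 95% intervals from the edgeR fit, in lines A/B (left) and C/D (right). Dotted lines mark a log2 fold change of 0.58 in size. In A/B at TP1, 22 of 31 peaks were lower at adjusted p ≤ 0.05, and in C/D at TP1 0 of 33 were lower.

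At TP2 in A/B the median log2 fold change of the members over B-ALL alone was −0.12. The call held for 0 of 31 member peaks, while 6.41% of all peaks were called, and at adjusted p alone 9 members were lower and 3 higher, against 16% and 14.8% of all peaks. The higher ones were 2 Bcl2l1 peaks, at up to 0.44, and 1 Ccnd2 peak, at 0.44. Both values exceed in size the largest decrease, −0.33. The Ccnd2 peak, 12433 bp after a start, is weak, with group means of 6.74 CPM at TP2 against 4.93 CPM alone. The Ccnd3 element had 10.1, 21.8 and 38.5 CPM as lowest, median and highest at TP2, and its log2 fold change over B-ALL alone was −0.25 ± 0.08 (SE, edgeR adjusted p = 0.0153). It did not pass without replicate 1 (edgeR adjusted p = 0.145) or without replicate 2 (edgeR adjusted p = 0.0652). Without experiment 9.7 the call held for 3 member peaks at TP2 and for 2 at TP1. The Bcl2l1 element was −0.32 at TP2, −0.50 without 9.7 and 0.03 in 9.7 alone. Bcl2l1 had −0.20 ± 0.05 at its promoter (edgeR adjusted p = 9.16e-04) and Socs2 −0.15 ± 0.04 (edgeR adjusted p = 0.00134, and 0.0678 without replicate 1), whereas Cish had −0.08 and Myc −0.06, neither of which passed.

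TP2 was also set directly against TP1 with NK cells in A/B. The call held for 0 of 31 member peaks (1.6% of all peaks), and at adjusted p alone 10 were higher and 1 lower, against 9.58% and 9.45% of all peaks. Of the 10, 8 were Ccnd3 peaks and 2 Bcl2l1 peaks. The Ccnd3 element was 0.39 ± 0.08 higher at TP2 (SE, edgeR adjusted p = 6.16e-04), in 6 of 6 combinations, and 0.38 higher without 9.7 (edgeR adjusted p = 0.00513). The Bcl2l1 element was 0.24 higher (edgeR adjusted p = 0.0353), 0.08 without 9.7 (edgeR adjusted p = 0.473) and 0.12 without replicate 1 (edgeR adjusted p = 0.561). The Ccnd3 start peak was 0.23 ± 0.06 higher (edgeR adjusted p = 0.00711, and 0.158 without replicate 1 or 0.0709 without replicate 3).

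In C/D the same exposure left the members close to B-ALL alone at TP1. The call held for 0 of 33 member peaks and for 1.82% of 55461 peaks. At adjusted p alone 4 were higher and 0 lower, against 9.33% and 5.07% of all peaks. All 4 were body or flanking peaks, 3 of Bcl2l1 and 1 of Ccnd2. The promoter peaks ranged from −0.03 to 0.12 in log2 fold change. Cish had 60.1, 87.2 and 103 CPM with NK cells and 65.5, 80.4 and 107 CPM alone, a log2 fold change of 0.00 ± 0.05 (SE).

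At TP2 in C/D the call again held for 0 of 33 member peaks (2.74% of all peaks). At adjusted p alone 14 were higher and 1 lower, against 18.5% and 16% of all peaks. The 14 were 9 Ccnd3 and 5 Bcl2l1 peaks, and the lower one was the Socs2 peak 3775 bp before a start, at −0.30 ± 0.05 (SE, edgeR adjusted p = 9.97e-06) and lower in 8 of 8 combinations. Against TP1 the call held for 0 of 33 (0.629% of all peaks), with 9 higher and 1 lower at adjusted p, against 14.1% and 13.6% of all peaks.

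In C/D the size of the TP2 gain depended on experiment 9.7, whose TP2 was day 16. At the Bcl2l1 element at 33882 bp, line C in 9.7 averaged 112 ± 12.4 CPM with NK cells at TP2 against 50.8 ± 7.53 CPM alone (SD, n = 3 each), and line D 107 ± 11.5 CPM against 69.3 ± 12.2 CPM. In both lines every library with NK cells at TP2 lay above every library alone. The log2 fold change was 0.32 ± 0.10 over all experiments (SE, edgeR adjusted p = 0.00864; 0.117 without replicate 2 and 0.18 with counts summed per group), 0.87 in 9.7 alone and 0.06 without 9.7 (edgeR adjusted p = 0.661). The Ccnd3 element gave 0.41 over all experiments, 0.85 in 9.7 alone and 0.19 without 9.7 (edgeR adjusted p = 0.166). Line D in experiment 9.6.1, sampled at day 10, also stood high, with a log2 ratio of 0.90 at the Ccnd3 element.

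The effect in 9.7 minus that in the other experiments was tested after these values had been seen. At TP2 in C/D it was called for 8 of 33 member peaks, 6 higher and 2 lower, while 23.2% of all peaks were called, 8.55% higher and 14.6% lower. The Bcl2l1 element differed by 0.80 ± 0.17 (SE, edgeR adjusted p = 1.84e-04). In A/B at TP2 it was called for 2 of 31, with the Socs2 peak at 3476 bp higher and the Bcl2l1 peak at 47803 bp lower, while 11% of all peaks were called, 2.71% higher and 8.26% lower. In C/D at TP1, when all NK co-cultures were 4 or 6 days old, it was called for 0 of 33 (0.683% of all peaks). The share of members called in C/D at TP2 was close to that of all peaks. Longer culture and other differences between the experiments cannot be told apart.

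**Figure D3:**
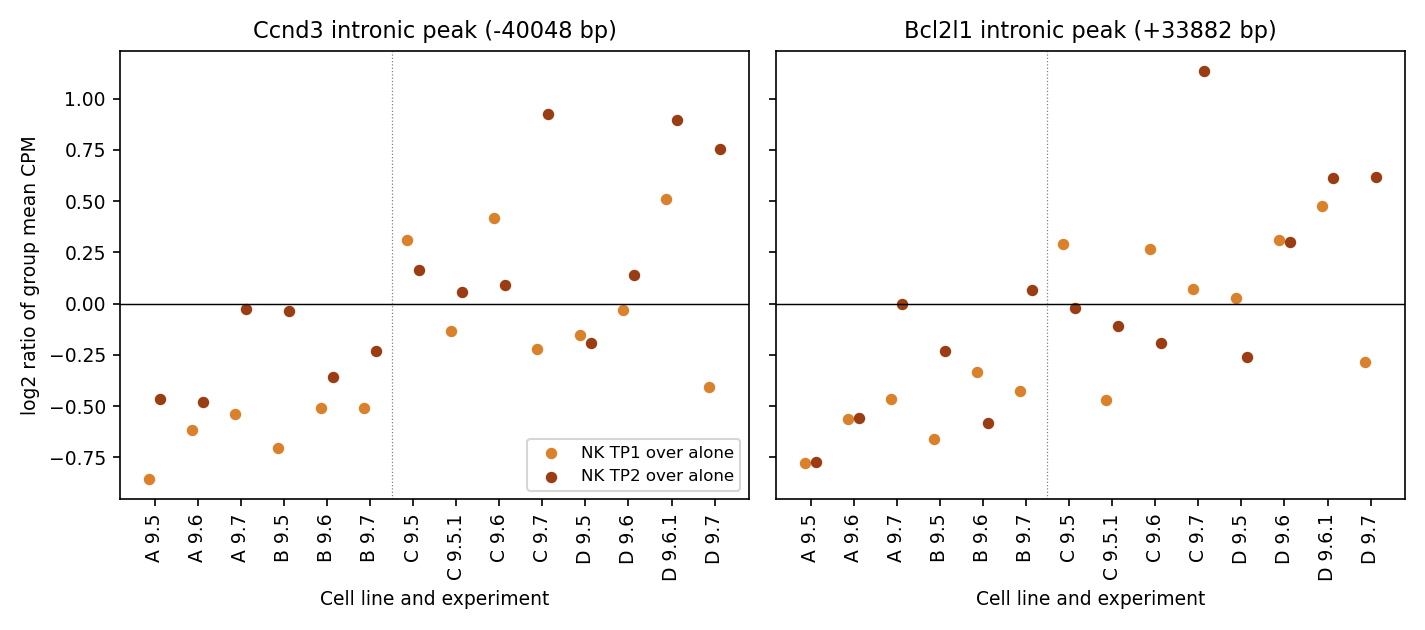
Log2 ratio of group mean CPM, B-ALL + NK over B-ALL alone, for each line and experiment at the Ccnd3 element 40048 bp before and the Bcl2l1 element 33882 bp after the nearest start. All 6 A/B combinations are below 0 at TP1, and lines C and D in experiment 9.7 are among the highest at TP2.

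The response of A/B minus that of C/D was then tested. At TP1 the call held for 2 of 34 member peaks, both lower, while 3.87% of 58886 peaks were called and 0.518% were called lower. These were the Ccnd3 element at −0.64 ± 0.14 (SE, edgeR adjusted p = 5.30e-04) and the Bcl2l1 element at −0.64 ± 0.14 (edgeR adjusted p = 6.32e-04). At adjusted p alone 17 of 34 were lower and 0 higher, against 11% and 6.89% of all peaks. Without replicate 1 of each group the adjusted p values of the 2 elements by edgeR were 0.287 for Ccnd3 and 0.389 for Bcl2l1, and with counts summed per group they were 0.0679 for Ccnd3 and 0.0849 for Bcl2l1. The count was 0 without replicate 1, and 6 without replicate 2 or without replicate 3.

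At TP2 the same 2 elements were called, Ccnd3 at −0.66 and Bcl2l1 at −0.64, while 4.6% of all peaks were called and 1.58% were called lower. At adjusted p alone 13 of 34 were lower and 0 higher, against 11.1% and 6.85% of all peaks. Without experiment 9.7 they stood at −0.50 for Ccnd3 and −0.58 for Bcl2l1, short of the size, and without replicate 1 at −0.57 for Ccnd3 and −0.55 for Bcl2l1. By experiment, Ccnd3 had −0.24 in 9.5 alone, −0.52 in 9.6 alone and −1.004 in 9.7 alone, and Bcl2l1 −0.36, −0.61 and −0.87, of which those of 9.7 passed. At TP1 the order was the other way, with −0.85, −0.74 and −0.23 for Ccnd3 and −0.88, −0.73 and −0.35 for Bcl2l1, and those of 9.7 did not pass (edgeR adjusted p = 0.684 for Ccnd3 and 0.526 for Bcl2l1). No promoter peak passed at TP2, and 4 of 8 passed at TP1, those of Socs2, Myc, Ccnd3 and Bcl2l1. With the loess offset Socs2 turned to 0.10 and Myc to 0.02, and Bcl2l1 did not pass (edgeR adjusted p = 0.408). Without replicate 1 none of the 4 passed, with edgeR adjusted p from 0.373 at Ccnd3 to 0.796 at Myc, and without replicate 3 Bcl2l1 did not (edgeR adjusted p = 0.0587). The comparison shares its B-ALL alone samples between TP1 and TP2, so the 2 time points are not independent.

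The parental lines also differed without NK cells. In B-ALL alone, A/B over C/D, 4 of 34 member peaks were called, all higher in A/B and all in Ccnd3, while 15.8% of 58798 peaks were called and 4.09% were called higher. The count of 4 was 1 without replicate 1 of each group, 7 without replicate 3, 0 with only peaks detected in every library and 1 with the loess offset. At adjusted p alone 28 of 34 were higher (82.4%) and 0 lower, against 28.2% and 27.6% of all peaks. The median log2 fold change was 0.29 for the members and 0.00 for all peaks. All 14 Ccnd3 peaks were higher.

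The Ccnd3 element led, with 14.7, 24.6 and 40.5 CPM as lowest, median and highest of 18 libraries in A/B and 7.70, 15.8 and 25.2 CPM of 22 libraries in C/D, a log2 fold change of 0.77 ± 0.08 (SE, edgeR adjusted p = 1.88e-12). The Ccnd3 peaks at −36411 bp (0.70), 26375 bp (0.68) and 37207 bp (0.61) followed. The 8 promoter peaks were all higher in A/B, from 0.12 at Socs3 to 0.33 at Ccnd3. With the loess offset Cish, Socs3, Pim1, Ccnd2 and Bcl6 turned to between −0.10 and −0.02, so the direction at those starts rests on the scaling. The Ccnd3 element thus led both this comparison and that of A/B at TP1, and the comparisons share the A/B alone libraries.

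**Figure D4:**
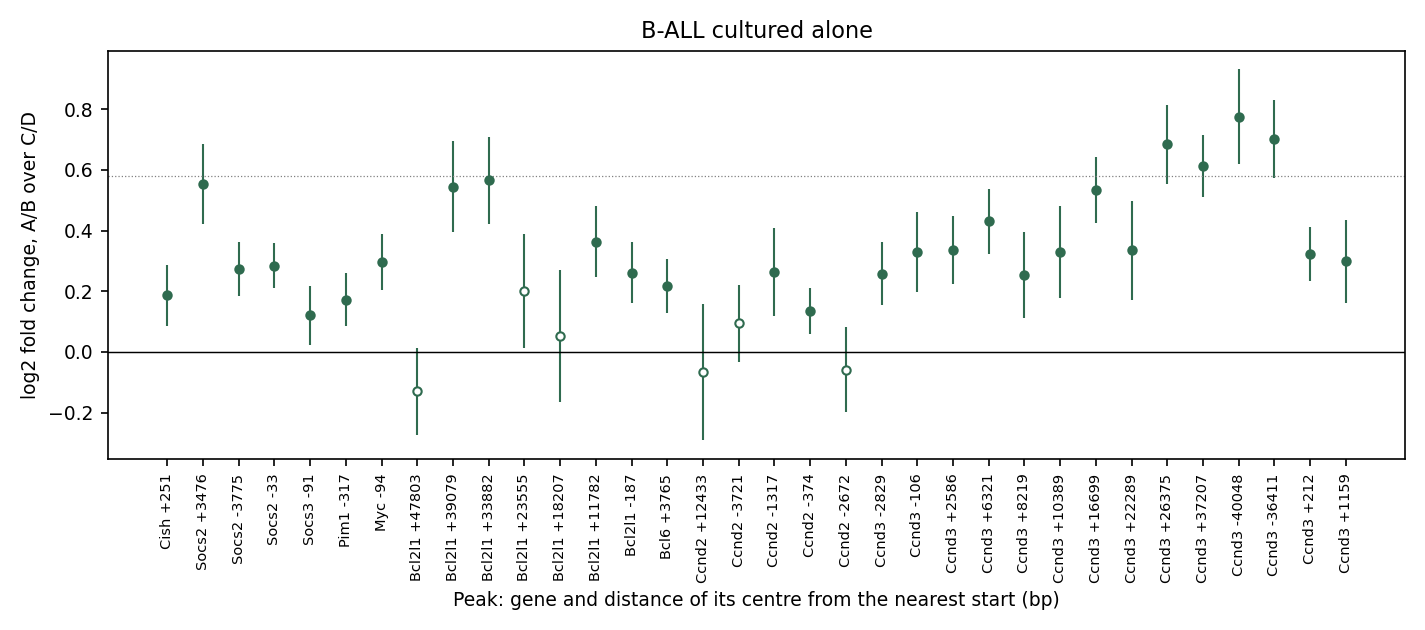
Log2 fold change, A/B over C/D, of each tested member peak in B-ALL cultured alone, with 95% intervals. The 4 peaks above the dotted line at 0.58 are all in Ccnd3.

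Between lines of the same parent no member peak passed. A over B in B-ALL alone was called for 0 of 34 member peaks (1.06% of all peaks), and C over D for 0 of 34 (1.05% of all peaks), with 0 at adjusted p alone in either. Over all peaks, 1% were higher and 1.33% lower in A over B at adjusted p alone, and 1.17% higher and 1.03% lower in C over D. The members ranged from −0.35 to 0.14 in A over B and from −0.31 to 0.13 in C over D.

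The peaks also differed in how much they varied. Over the 42 groups the coefficient of variation was 35.8% at the Bcl2l1 peak at 39079 bp, 35.7% at the Ccnd3 element and 33.6% at the Bcl2l1 element at 33882 bp. It was 10.0% at Bcl6 and 10.2% at the Socs2 start. Elements inside Bcl2l1 and Ccnd3 thus varied most, and the start peaks of Bcl6 and Socs2 least.

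Upstream of these genes, the start peaks of 8 kinase and STAT5 genes gave 3 lower and 0 higher at adjusted p in A/B at TP1, where 24.8% of all peaks were lower and 19.2% higher, with a median of −0.11 against −0.05 for all start peaks. These 3, named after their values were seen, were Stat5a, with −0.32 ± 0.06 (SE, edgeR adjusted p = 6.25e-06), Stat5b −0.24 ± 0.07 and Abl1 −0.26 ± 0.06. Among 10 measured STAT5-activating receptors Il2ra, the alpha chain of the IL-2 receptor, was called higher at TP2 in A/B, at 0.73 ± 0.08 (edgeR adjusted p = 1.07e-10). The call held for 6.41% of all peaks in that comparison. In C/D at TP2 Il2ra had −0.03 ± 0.10 (edgeR adjusted p = 0.832). Of 15 inhibitors of JAK-STAT signalling 6 were lower and 0 higher in A/B at TP1, none of them past the size. Of 19 other STAT5 targets 8 were lower and 2 higher there, where 24.8% of all peaks were lower and 19.2% higher.

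The interferon-gamma response genes moved the other way in A/B at TP1, with 6 of 8 higher, 4 of them called, and a median of 0.58. In C/D at TP1 7 of 8 were higher, 2 of them called, with a median of 0.39. The share of all peaks that were higher at adjusted p was 19.2% for A/B and 9.33% for C/D. Of 9 B-ALL identity markers 7 were lower in A/B at TP1, with a median of −0.34, where 24.8% of all peaks were lower. In C/D at TP1 0 of the 9 markers were lower, but only 5.07% of all peaks were lower there. The part of either gene list in the decrease at the STAT5 targets was not tested.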

How the data were processed

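ATAC-seq libraries were made from sorted B-ALL cells. The authors aligned reads to GRCm38 with STAR, removed duplicates with Picard 2.27.4, called broad peaks per library with MACS2 2.2.7.1 and counted reads over 256400 consensus peaks with featureCounts 2.0.1 (minimum overlap fraction 0.2). The blacklist named in the methods belongs to a human genome build. The deposited values are raw counts, and the deposited peak lists give fold enrichment and −log10 q, used here only to ask where a broad peak was called.

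Counts were scaled by TMM and tested with edgeR 4.0.16 (quasi-likelihood test, Benjamini-Hochberg adjustment over all tested peaks, R 4.3.3), with a term for each of 14 combinations of line and experiment. Comparisons of lines within B-ALL alone used terms for line and for experiment instead. Calls needed adjusted p ≤ 0.05 and an absolute log2 fold change of at least 0.58. A peak was tested where a broad peak overlapped it in every library of at least 1 group and its counts passed edgeR's filter on low counts. Levels are TMM-scaled CPM. In 2 groups, 2 libraries had a chi-square per degree of freedom of 0.825 and 0.853, under sampling noise, and were averaged. The fits left 46 residual degrees of freedom (A/B), 59 (C/D), 105 (their difference) and 32 (B-ALL alone).

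Named were the promoter peak of every member gene, other member peaks that were called, at most 4 per comparison, and at most 3 called genes per list and comparison. Further peaks of the 9 genes are named as examples chosen after their values were seen. The members and lists were chosen with earlier results of these data known. Gene models were GENCODE on GRCm38, and RefSeq supplied the genome sequence only. Alternatives were DESeq2 1.42.0, RLE size factors, a loess offset, 2 detection filters, summed counts, each replicate number, experiment or line left out or alone, and a replicate block. The contrast of experiment 9.7 with the others was added after seeing the data. A like-pattern search and 1 sequence are not reported here.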

Additional observations from a re-analysis of the deposited data

Results flagged for a closer look

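Differences between groups were seen for 14 results, all by a test of the difference itself (edgeR, adjusted p from 6.23e-06 to 0.00418). No sample stood apart from its group in the 60 groups of values examined, a rule by which chance alone picks out about 1 group in 20.

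The response of A/B minus that of C/D was −0.64 at TP1 and −0.66 at TP2 for the Ccnd3 element 40048 bp before its nearest start, and −0.64 at both times for the Bcl2l1 element at 33882 bp. At TP2 in C/D, the effect in experiment 9.7 minus that in the others was 0.80 at the Socs2 peak at 3476 bp and at the Bcl2l1 element at 33882 bp. It was 0.75 at the Ccnd3 peak at 26375 bp, 0.65 at the Ccnd3 element at −40048 bp, 0.63 at the one at −36411 bp and 0.72 at the Bcl2l1 peak at 39079 bp. It was −0.62 at the Bcl2l1 peak at 47803 bp and −0.71 at the Ccnd2 peak at −3721 bp. Of 33 member peaks 6 were called higher and 2 lower, while 23.2% of all peaks were called, 8.55% higher and 14.6% lower. This contrast was added after seeing the data. In A/B the same contrast at TP2 was 0.86 at the Socs2 peak at 3476 bp (edgeR adjusted p = 0.00238) and −0.60 at the Bcl2l1 peak at 47803 bp (edgeR adjusted p = 0.00418), 2 of 31 member peaks called while 11% of all peaks were.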

How the results depend on the processing

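Over all alternatives, 116 of the counts of called member peaks stayed within 1.5 times their value and 49 did not. The 116 include counts that were 0 in the main fit and stayed 0, which do not show that a call was stable. Among named peaks 665 values stayed the same in standing, 298 were weaker and 34 reversed. Most of these results were not called in the main fit, and for those that were, weaker meant loss of the call. With counts summed per group, 37 named results were weaker and 30 stayed the same. The cause was not tested. Deviations of same-numbered libraries had a median r of 0.030 (−0.41 to 0.44) over 120 pairs and different numbers −0.012 (−0.40 to 0.45) over 240. A median near that of different numbers shows no general pairing, but it cannot exclude structure by replicate number. Leaving out replicate 1 weakened 41 named results, replicate 2 weakened 16 and replicate 3 weakened 9. With the replicate block the counts were 1 in A/B at TP1, 2 in A/B minus C/D at each time and 0 in the other comparisons made with it, and 3 of 52 named results were weaker.

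Member peaks called in A/B at TP1 (1 as reported) were 0 when detected in every library, with the loess offset, in 9.6 alone and in 9.7 alone, 4 without a detection filter and in 9.5 alone, 2 without 9.7, 3 in line A alone, and 0 to 3 leaving out 1 replicate number. In A/B at TP2 (0) they were 3 without 9.7 and in 9.5 alone, 2 in 9.6 alone, 1 in line A alone and 0 to 1 leaving out 1 number, and in TP2 over TP1 (0) 2 in 9.7 alone. In C/D they were 1 in 9.6 alone at TP1 (0), and at TP2 (0) 10 in 9.7 alone and 1 without 9.7, in 9.5 alone, in line C alone and without a detection filter. TP2 over TP1 in C/D (0) gave 11 in 9.7 alone and 1 without a detection filter. A/B minus C/D at TP1 (2) gave 0 with counts summed, detection in every library, the loess offset and 9.7 alone, 7 without a detection filter, 5 without 9.7, 6 in 9.5 alone and 0 to 6 leaving out 1 number. At TP2 (2) it gave 1 with counts summed, detection in every library, the loess offset and without 9.7, 0 in 9.5 alone and 9.6 alone, 9 in 9.7 alone and 0 to 2 leaving out 1 number. A/B over C/D alone (4) gave 0 with detection in every library, 1 with the loess offset, 9 without a detection filter, 7 without 9.7 and 1 to 7 leaving out 1 number.

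With the loess offset, A/B at TP1 became 0.0774 at Myc, 0.11 at Socs2 and 0.0692 at Bcl6, Bcl6 at TP2 0.0121, A/B minus C/D at TP1 0.0204 at Myc and 0.10 at Socs2, and A/B over C/D −0.0316 at Bcl6, −0.10 at Ccnd2, −0.017 at Cish, −0.0588 at Pim1 and −0.0888 at Socs3. With detection in every library, A/B over C/D was −0.0024 at Ccnd2 and −0.0196 at Socs3. In 9.7 alone, A/B at TP2 was 0.0291 at the Bcl2l1 element, 0.0377 at Bcl6, 0.22 at the Socs2 peak 3476 bp after a start, 0.0255 at the Socs2 start and 0.0249 at Socs3. In 9.6 alone, A/B minus C/D at TP2 was 0.0814 at the Ccnd3 peak at −36411 bp, and the Bcl2l1 element was −0.0627 in A/B TP2 over TP1. C/D at TP2 in 9.5 alone was −0.12 at the Bcl2l1 element, −0.20 at the Ccnd3 start, −0.19 at the Ccnd3 peak at 26375 bp and −0.14 at −36411 bp, and in 9.6 alone −0.0097 at 26375 bp and −0.029 at −36411 bp. TP2 over TP1 in C/D was, at 26375 bp, −0.0209 without 9.7, −0.24 in 9.5 alone and −0.10 in 9.6 alone, at −36411 bp −0.0179 without 9.7, −0.20 in 9.5 alone and −0.20 in 9.6 alone, and at the Ccnd3 element −0.069 in 9.5 alone and −0.0416 in 9.6 alone.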

Other observations

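Other outputs of BCR-ABL were read at their start peaks in the same fits. Of 14 RAS-MAPK outputs 7 were lower and 2 higher in A/B at TP1, with a median log2 fold change of −0.11, and at TP2 9 were lower and 0 higher. Of 12 PI3K-AKT-FOXO outputs 8 were lower and 0 higher at TP1, with a median of −0.13, and 6 were lower at TP2. None of either list passed the size, and all start peaks had a median of −0.05 at TP1. Of all peaks, 24.8% were lower and 19.2% higher in A/B at TP1, and 16% lower and 14.8% higher at TP2. In C/D at TP1 0 of 14 and 0 of 12 passed at adjusted p, and at TP2 5 RAS-MAPK outputs were lower, where 16% of all peaks were.

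Of 10 STAT5-activating receptors in C/D at TP2, 2 were higher and 3 lower at adjusted p, none past the size, while 18.5% of all peaks were higher and 16% lower. The genes named next were chosen after their values were seen. Ghr, the growth hormone receptor, had a log2 fold change of −0.47 ± 0.09 (SE, edgeR adjusted p = 1.91e-05) and Crlf2, a chain of the TSLP receptor, one of −0.28. Il2rb, a chain of the IL-2 receptor, had 0.30 ± 0.08 (edgeR adjusted p = 0.00359). Among inhibitors Socs6 changed by −0.39 ± 0.09 (edgeR adjusted p = 3.22e-04).

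In A/B at TP1 3 of 10 NK cell markers were higher with a median of 0.22, 2 of 5 myeloid markers were higher, Mpeg1 among them past the size, and the 1 measured T cell marker was higher. Of all peaks 19.2% were higher in that comparison. The summed level of myeloid marker peaks was 43.0 to 59.4 CPM with NK cells at TP1 and 34.0 to 49.6 CPM alone in A/B. In C/D at TP1 0 of 10 NK cell markers passed, where 9.33% of all peaks were higher and 5.07% lower. The part of other cells in the member peaks was not tested.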
